A study of Mus musculus with 18 samples.

Results

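The genes described here encode the channels, exchangers and pumps by which airway epithelium moves sodium, chloride and bicarbonate. They were chosen by symbol: *Cftr*, *Slc26a9*, *Slc26a4* and *Ano1* for anions, *Scnn1a*, *Scnn1b* and *Scnn1g* for sodium entry, and *Slc12a2*, *Atp1b1* and *Kcnq1* for the basolateral side of the cell. All 10 were found by Entrez identifier among the 27179 genes counted, and all 10 were among the 17989 genes that passed the filter on low counts and were tested. The rule for choosing them used symbols and no threshold on a measured value, although earlier results of these data were known.

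The liquid that coats the airways is set by the balance between sodium absorption and anion secretion. Sodium enters the apical face of the cell through the epithelial sodium channel ENaC, which is built from an alpha, a beta and a gamma subunit, and is pumped out at the basolateral face by the sodium potassium ATPase. Chloride is loaded across the basolateral membrane by the cotransporter NKCC1 and leaves through apical channels such as CFTR, the channel that is defective in cystic fibrosis, and the calcium-activated channel TMEM16A, while basolateral potassium channels maintain the electrical force on it. Alveolar epithelium uses much the same machinery to keep the air spaces clear of liquid.

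RNA was sequenced from 6 cell populations of male C57BL/6 mice, from tissue labelled as normal and from young adults by the study's methods, with 3 libraries for each population. Basal stem cells (BSCs, the NGFR-positive gate) and non-basal cells (NGFR-negative) were sorted from the tracheas of mice 1 to 3. The lungs of mice 4 to 6 gave EpCAM-positive CD104-positive airway cells with high CD24 (labelled as enriched in ciliated cells) or low CD24 (CD24lo, enriched in club cells), EpCAM-positive CD104-low alveolar cells, and EpCAM-negative non-epithelial cells. Tracheal and lung populations thus differ in organ, animals and dissociation, and these cannot be told apart from cell type in any comparison across organs. Total counts were 29317215 to 32993621 per tracheal library and 9811503 to 13208897 per lung library, so weakly expressed genes carried more counting error in lung. The tracheal totals exceed the reads per mouse sample that the study's methods state, and the sources used here give no reason for it.

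Each gate held its defining markers, and markers of other cell types were read in each as well. *Krt5*, the basal keratin, had a mean RPKM (reads per kilobase, scaled to library size) of 1540 ± 52.8 in the BSC gate against 120 ± 14.4 in the non-basal gate (SD, n = 3 each), and *Foxj1*, the ciliated cell regulator, had 626 ± 62.5 in CD24hi against 70.6 ± 32.1 in CD24lo cells (SD, n = 3 each). *Scgb1a1*, the club cell secretoglobin, averaged 599000 RPKM in CD24lo, 78200 in CD24hi, 60200 in non-basal and 4010 in alveolar cells. *Sftpc*, the surfactant gene of alveolar type 2 cells, averaged 156000 RPKM in alveolar, 4220 in CD24lo, 1170 in CD24hi and 636 in EpCAM-negative cells. The 3 endothelial markers were at or above 1 RPKM in all 4 lung gates, with summed levels of 35.3 to 115 RPKM in CD24hi, 82.1 to 165 in CD24lo and 84.6 to 133 in EpCAM-negative cells. In EpCAM-negative libraries the 4 fibroblast markers summed to 5570 to 5780 RPKM and the 3 smooth muscle markers to 1460 to 1550. In every other library these sums were at most 169 and 142 RPKM. In such bulk samples fewer expressing cells and less RNA per cell cannot be told apart.

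The ion transport genes were distributed over the gates in several orders. By mean RPKM, *Cftr*, *Slc26a9*, *Slc26a4*, *Slc12a2* and *Atp1b1* were highest in alveolar cells, *Scnn1b* and *Scnn1g* in CD24lo cells, *Scnn1a* in CD24hi cells, and *Ano1* and *Kcnq1* in tracheal non-basal cells. When the 6 group means of each gene were put in order, 37 of the 50 neighbouring pairs differed at an edgeR adjusted p under 0.05 (quasi-likelihood test, Benjamini-Hochberg over all genes tested). The same count was not made over all genes, so whether it is high for these genes is not known. The top 2 gates of *Slc12a2* (alveolar and CD24lo) and of *Atp1b1* (alveolar and non-basal) did not pass this test.

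**Figure D1:**
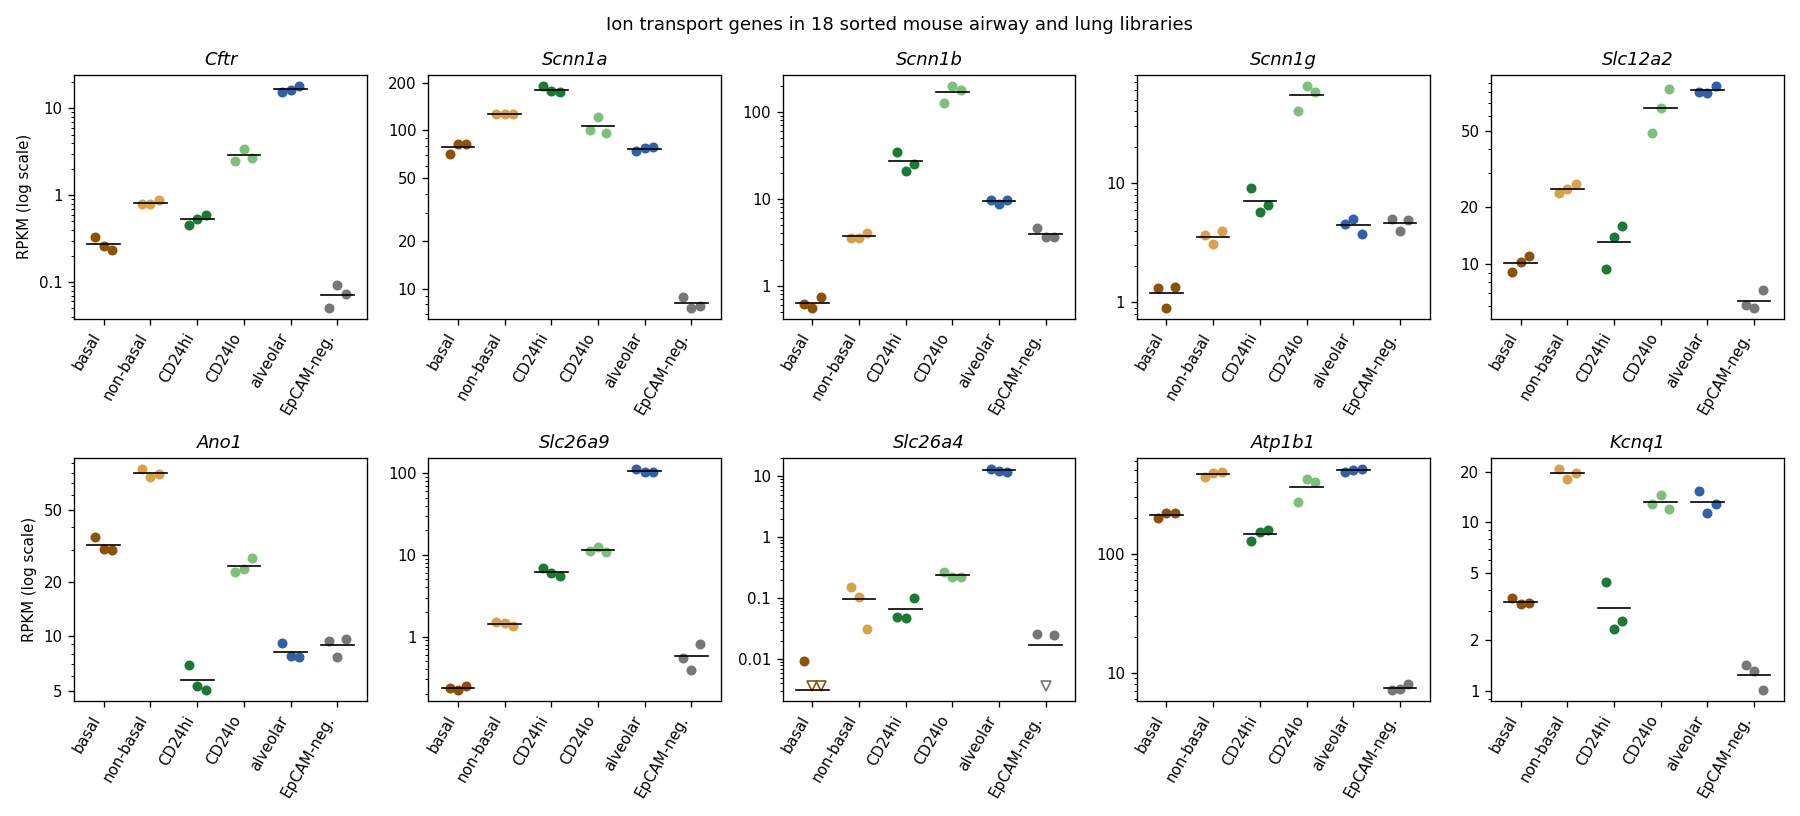
RPKM (vertical axes, log scale, a separate range for each gene) of the 10 ion transport genes in each of 18 libraries, 3 for each of 6 sorted populations on the horizontal axes. Points are libraries, black bars are group means and open triangles at the foot of the *Slc26a4* panel are libraries with 0 reads. *Scnn1b* and *Scnn1g* peak in CD24lo, *Cftr*, *Slc26a9* and *Slc26a4* in alveolar cells, and *Ano1* in non-basal tracheal cells.

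*Scnn1a*, *Scnn1b* and *Scnn1g* encode the alpha, beta and gamma subunits of ENaC. *Scnn1a* lies on chromosome 6 (125314271 to 125344943), whereas *Scnn1g* (121734420 to 121768482) and *Scnn1b* (121865038 to 121918728) lie on chromosome 7 on the same strand, 96.6 kilobases apart (RefSeq, GRCm38.p6, the assembly behind mm10). The 250 bases before a RefSeq transcript start of this neighbouring pair are shown, since both genes were highest in the same gate: *Scnn1g* at chr7:121734229-121734478 and *Scnn1b* at chr7:121864788-121865037, both on the plus strand. The *Scnn1g* window belongs to a start inside the gene span given above, so its last bases lie within that span. Capitals mark the letters of 6 motifs searched on both strands.

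Scnn1g: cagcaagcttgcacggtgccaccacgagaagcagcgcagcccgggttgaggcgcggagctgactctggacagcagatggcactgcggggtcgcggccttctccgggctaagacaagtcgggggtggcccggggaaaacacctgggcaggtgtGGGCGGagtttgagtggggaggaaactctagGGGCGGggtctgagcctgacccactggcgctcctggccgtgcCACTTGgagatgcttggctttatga

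Scnn1b: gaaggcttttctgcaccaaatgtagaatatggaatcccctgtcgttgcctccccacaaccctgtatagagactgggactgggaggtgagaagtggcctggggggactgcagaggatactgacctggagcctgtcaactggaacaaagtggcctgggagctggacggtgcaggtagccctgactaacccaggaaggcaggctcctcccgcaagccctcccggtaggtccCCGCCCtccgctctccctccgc

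The motifs were the GC box GGGCGG, the CCAAT box, the TATA box TATAAA, the NKX2-1 core CAAGTG, the forkhead motif TGTTTAC and the grainyhead motif AACCNGGTT. Both windows held the GC box, as did 32.7% of the 32851 windows of this length in the RefSeq table, and the *Scnn1g* window also held the NKX2-1 core 25 bases before the start on the opposite strand, found in 11.6% of all windows. The *Scnn1g* window had 65.2% GC and 16 CpG and the *Scnn1b* window 60.8% GC and 7 CpG, beside medians of 52.4% and 6 over all windows. A match is a run of letters and not a shown binding site.

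*Scnn1a* was at 71.3, 81.8 and 82.1 RPKM in the 3 BSC libraries, at 127 in each non-basal library, and at 191, 177 and 175 in CD24hi cells. It was at 101, 122 and 96.0 RPKM in CD24lo, 73.8, 77.3 and 78.8 in alveolar and 8.95, 7.64 and 7.77 in EpCAM-negative cells. The epithelial gates thus spanned a narrow range, from 76.6 ± 2.57 RPKM in alveolar to 181 ± 9 in CD24hi cells (SD, n = 3 each), and every epithelial library was above every EpCAM-negative library. The level was lower in BSCs than in non-basal cells by a log2 fold change of -0.70 (SE 0.10, edgeR adjusted p = 1.41e-05) and higher in CD24hi than in CD24lo cells by 0.77 (SE 0.10, edgeR adjusted p = 3.41e-06). BSCs and alveolar cells overlapped, with a log2 difference of 0.03 (95% interval -0.17 to 0.24, edgeR adjusted p = 0.782), which became 0.44 (edgeR adjusted p = 0.000471) when libraries were scaled by their totals alone.

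*Scnn1b* was at 0.614, 0.562 and 0.738 RPKM in BSCs, 3.58, 3.56 and 4.03 in non-basal and 34.6, 20.9 and 25.4 in CD24hi cells. It reached 126, 199 and 180 RPKM in CD24lo cells and was at 9.77, 8.75 and 9.81 in alveolar and 4.67, 3.67 and 3.64 in EpCAM-negative cells. CD24lo libraries lay above all others with no overlap, and BSC libraries below all others. CD24lo cells exceeded alveolar cells 17.8-fold (log2 4.15, SE 0.19, edgeR adjusted p = 1.01e-11) and CD24hi cells 6.23-fold (log2 of CD24hi minus CD24lo -2.64, SE 0.18, edgeR adjusted p = 2.05e-09), and BSCs lay 5.81-fold below non-basal cells (log2 -2.54, SE 0.21, edgeR adjusted p = 2.88e-08).

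*Scnn1g* followed the same order at the top, with 40.2, 65.3 and 58.2 RPKM in CD24lo and 9.06, 5.72 and 6.50 in CD24hi cells. The other gates were close together, at 4.52, 5.03 and 3.71 RPKM in alveolar, 4.96, 3.98 and 4.93 in EpCAM-negative and 3.64, 3.10 and 3.94 in non-basal cells, with BSCs at 1.32, 0.904 and 1.35. Alveolar libraries overlapped both EpCAM-negative and non-basal libraries, which did not overlap each other, and neither neighbouring pair in their order passed the test (edgeR adjusted p = 0.821 and 0.199). CD24lo exceeded CD24hi cells 7.69-fold (log2 of CD24hi minus CD24lo -2.94, SE 0.20, edgeR adjusted p = 2.42e-09) and alveolar cells 12.3-fold (log2 3.62, SE 0.21, edgeR adjusted p = 1.85e-10). Between CD24hi and alveolar cells the log2 difference of 0.68 (edgeR adjusted p = 0.00899) fell to 0.47 (edgeR adjusted p = 0.0649) without CD24hi replicate 1. Over the 18 libraries the log2 CPM of *Scnn1b* and *Scnn1g* correlated at r = 0.959, a description over libraries that share gates and mice.

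The proportions of the ENaC subunit transcripts therefore varied across the gates, although CD24hi and alveolar libraries overlapped in the ratio of *Scnn1a* to *Scnn1b*. In the ratio of *Scnn1a* to *Scnn1g*, CD24hi (21.1 to 30.9) and alveolar libraries (15.4 to 21.2) overlapped as well. So did CD24lo (1.65 to 2.52) and EpCAM-negative libraries (1.58 to 1.92). Per length, *Scnn1a* exceeded *Scnn1b* 111- to 146-fold in the 3 BSC libraries, 31.6- to 35.7-fold in non-basal, 5.53- to 8.47-fold in CD24hi, 7.56- to 8.84-fold in alveolar and 1.92- to 2.14-fold in EpCAM-negative cells. In CD24lo cells the order turned, with ratios of 0.805, 0.613 and 0.534. The ratio of *Scnn1b* to *Scnn1g* moved less, from 0.464 to 0.622 in BSCs to 3.65 to 3.91 in CD24hi cells. CD24lo was the gate where all 3 subunits had means above 50 RPKM, at 106 ± 13.7, 168 ± 37.9 and 54.6 ± 12.9 (SD, n = 3 each).

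**Figure D2:**
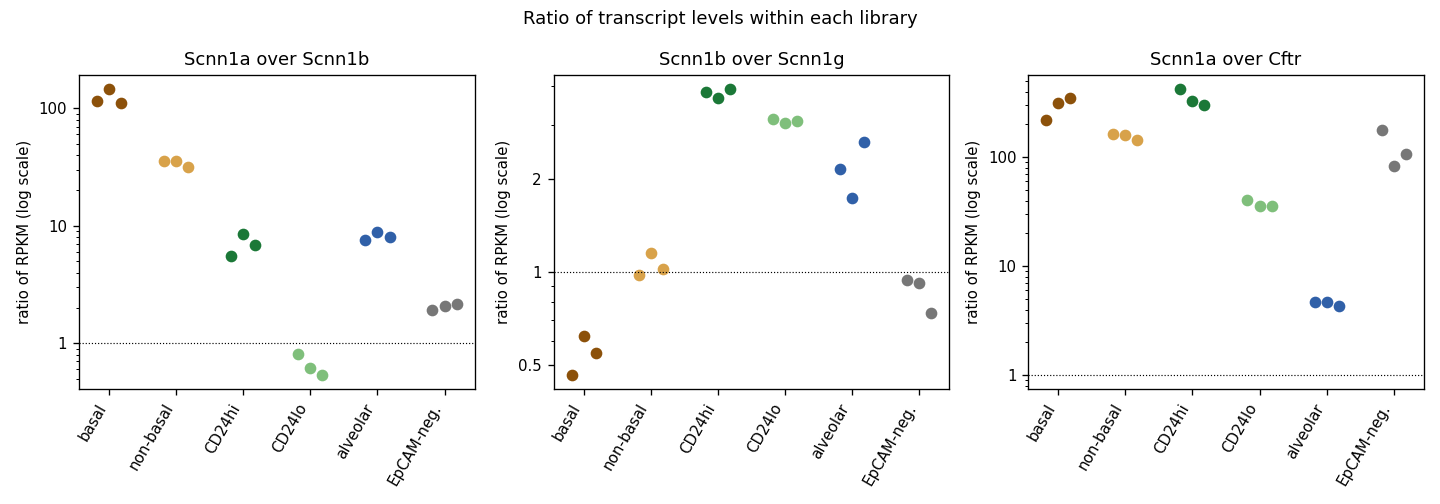
Ratio of RPKM values (vertical axes, log scale) within each of 18 libraries for *Scnn1a* over *Scnn1b*, *Scnn1b* over *Scnn1g* and *Scnn1a* over *Cftr*, by sorted population. Each point is a library and the dotted line is a ratio of 1. *Scnn1a* over *Scnn1b* runs from 111 to 146 in BSCs to below 1 in CD24lo cells, and *Scnn1a* over *Cftr* is lowest, at 4.34 to 4.74, in alveolar cells.

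Markers of other cell types lay beside these values. The alveolar libraries held *Scnn1b* at 4.4 to 7.77% and *Scnn1g* at 6.38 to 11.2% of the CD24lo level of the same mouse. All 4 club markers were lower, with *Scgb1a1* at 0.550 to 0.781%, *Scgb3a2* at 0.364 to 0.573%, *Scgb3a1* at 0.212 to 0.424% and *Cyp2f2* at 1.11 to 1.49%, and their summed level was 3860 to 4920 RPKM in alveolar against 497000 to 700000 in CD24lo libraries. In CD24hi cells *Scnn1b* was at 10.5 to 27.5% and *Scnn1g* at 8.76 to 22.5% of the CD24lo level, a range that overlapped *Scgb1a1* (10.5 to 19.2%), *Scgb3a2* (8.07 to 13.2%), *Scgb3a1* (5.70 to 11.8%) and *Cyp2f2* (19.7 to 35.2%). The part of club cell RNA in the CD24hi values was not tested.

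*Cftr*, *Slc26a9* and *Slc26a4* encode the cyclic AMP-regulated chloride and bicarbonate channel, a chloride transporter that can act with it, and pendrin, which exchanges chloride for bicarbonate and iodide. They lie on chromosomes 6 (18170687 to 18322770), 1 (131744022 to 131771504) and 12 (31519814 to 31560055). All 3 were highest in alveolar cells, and their upstream windows are shown for that reason, with capitals as above: *Cftr* at chr6:18170437-18170686 (plus strand), *Slc26a9* at chr1:131743772-131744021 (plus strand) and *Slc26a4* at chr12:31559985-31560234 (minus strand). The *Slc26a4* window also belongs to a start inside the gene span, so part of it lies within that span.

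Cftr: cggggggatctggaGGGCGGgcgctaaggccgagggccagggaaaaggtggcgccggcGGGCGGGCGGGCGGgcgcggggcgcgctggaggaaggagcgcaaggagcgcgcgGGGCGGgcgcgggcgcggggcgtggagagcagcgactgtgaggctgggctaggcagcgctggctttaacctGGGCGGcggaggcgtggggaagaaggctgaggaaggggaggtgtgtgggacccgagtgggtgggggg

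Slc26a9: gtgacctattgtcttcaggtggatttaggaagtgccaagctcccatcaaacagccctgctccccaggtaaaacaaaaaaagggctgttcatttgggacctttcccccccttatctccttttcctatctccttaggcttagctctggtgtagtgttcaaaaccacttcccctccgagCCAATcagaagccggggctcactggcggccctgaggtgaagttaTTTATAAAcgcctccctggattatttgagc

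Slc26a4: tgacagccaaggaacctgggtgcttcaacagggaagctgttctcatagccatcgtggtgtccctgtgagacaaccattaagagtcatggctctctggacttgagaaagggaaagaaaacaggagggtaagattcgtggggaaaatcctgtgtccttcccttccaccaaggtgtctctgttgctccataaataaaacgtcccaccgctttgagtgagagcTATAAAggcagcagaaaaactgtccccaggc

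The *Cftr* window was rich in GC (76.4%, 30 CpG) and held the GC box at 6 positions, some of them overlapping, whereas the other two had 50% and 49.6% GC with 4 CpG each and a TATA box 28 and 31 bases before the start, a motif found in 12.4% of all windows. The TATA match of *Slc26a9* overlaps a match on the opposite strand, and the same window held a CCAAT box (33.8% of all windows). The NKX2-1 core was in neither the *Cftr* nor the *Slc26a9* or *Slc26a4* window, and the forkhead motif (3.17% of all windows) and the grainyhead motif (0.240%) were in none of the 7 windows listed for these 10 genes. *Scnn1a*, *Slc12a2* and *Kcnq1* had no window in the table.

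*Cftr* was at 15.6, 16.3 and 18.2 RPKM in alveolar cells, 2.5, 3.40 and 2.72 in CD24lo and 0.455, 0.540 and 0.586 in CD24hi cells. In trachea the non-basal libraries had 0.784, 0.797 and 0.883 RPKM, the BSC libraries 0.329, 0.263 and 0.237, and the EpCAM-negative libraries 0.0509, 0.0917 and 0.0725, from 4, 7 and 6 reads. The groups did not overlap, and each of the 5 steps in the order alveolar, CD24lo, non-basal, CD24hi, BSC, EpCAM-negative passed the test. Alveolar exceeded CD24lo cells 5.81-fold (log2 of CD24lo minus alveolar -2.54, SE 0.13, edgeR adjusted p = 3.66e-11), and the smallest step, non-basal above CD24hi cells, was 1.56-fold (log2 0.64, SE 0.16, edgeR adjusted p = 0.0016). BSCs were lower than non-basal cells by a log2 fold change of -1.57 (SE 0.15, edgeR adjusted p = 1.31e-07). An annotated transcript on the opposite strand overlaps 1.66% of the exonic bases of *Cftr*.

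Ionocytes, a rare airway cell known for high *Cftr*, have the regulators *Foxi1* and *Ascl3*. *Foxi1* averaged 2.04 ± 0.229 RPKM in the non-basal gate against 0.0957 ± 0.0558 in the BSC gate (SD, n = 3 each), and it had 0 reads in every CD24lo, alveolar and EpCAM-negative library. The summed level of the 2 regulators was 8.19 to 12.3 RPKM in non-basal, 0.865 to 2.17 in BSC, at most 0.652 in CD24lo and at most 0.286 in alveolar libraries. Alveolar and CD24lo cells, the gates with the highest *Cftr* levels, had no read of *Foxi1* and at most 2 and 5 reads of *Ascl3* in a library. The part of ionocyte RNA in the *Cftr* values was not tested.

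*Slc26a9* had the same top gate with a wider gap, at 113, 102 and 104 RPKM in alveolar against 11, 12.5 and 10.7 in CD24lo and 6.88, 6.04 and 5.45 in CD24hi cells. It was at 1.5, 1.47 and 1.35 RPKM in non-basal cells, 0.551, 0.386 and 0.816 in EpCAM-negative cells and 0.234, 0.220 and 0.248 in BSCs. The 6 groups did not overlap, and all 5 steps in their order passed the test. Alveolar exceeded CD24lo cells 9.35-fold (log2 of CD24lo minus alveolar -3.22, SE 0.13, edgeR adjusted p = 1.8e-12), and across organs it exceeded BSCs 451-fold (log2 of BSC minus alveolar -8.82, SE 0.18, edgeR adjusted p = 1.97e-16).

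*Slc26a4* was read mostly in the alveolar gate, at 13.3, 12.1 and 11.9 RPKM from 466, 407 and 364 reads. CD24lo libraries held 9, 7 and 6 reads, CD24hi libraries 2, 2 and 4, non-basal libraries 14, 9 and 3, EpCAM-negative libraries 1, 0 and 1 and BSC libraries 1, 0 and 0. Alveolar exceeded CD24lo cells 51.5-fold (log2 of CD24lo minus alveolar -5.69, SE 0.29, edgeR adjusted p = 3.66e-11). Against BSCs, with 1 read in all, the ratio was 4110 (95% exact counting interval 737 to 163000), and non-basal cells exceeded BSCs by a ratio of 31.4 (interval 5.15 to 1290). Below CD24lo no neighbouring pair in the order passed the test (edgeR adjusted p = 0.421, 0.0927 and 0.186).

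Markers of alveolar type 2 cells accompanied the lower levels in the other lung gates. As a share of the alveolar level of the same mouse, the CD24lo libraries held *Slc26a4* at 1.84 to 2.02%, *Slc26a9* at 9.70 to 12.2% and *Cftr* at 15 to 20.8%. The 4 type 2 cell markers in the same libraries were at 1.8 to 3.80% (*Sftpc*), 1.66 to 2.97% (*Lamp3*), 12.1 to 16.3% (*Sftpb*) and 13.8 to 17.9% (*Abca3*), and all 4 were above 1 RPKM, with sums of 4810 to 7510 in CD24lo and 164000 to 183000 in alveolar libraries. *Slc26a4* thus lay in the range of *Sftpc* and *Lamp3*, whereas *Cftr* overlapped *Sftpb* and *Abca3*, and *Slc26a9* overlapped *Sftpb* at its upper end and lay below *Abca3*. In EpCAM-negative libraries *Cftr* (0.326 to 0.562%) and *Slc26a9* (0.378 to 0.783%) overlapped the ranges of *Sftpc* (0.330 to 0.509%), *Sftpb* (0.427 to 0.663%) and *Lamp3* (0.364 to 0.607%), below *Abca3* (2.85 to 3.10%). In CD24hi libraries *Slc26a4* (0.368 to 0.856%) overlapped *Sftpc* (0.507 to 1.22%) and *Lamp3* (0.556 to 0.736%), and *Cftr* (2.91 to 3.31%) overlapped *Sftpb* (2.53 to 3.67%). *Slc26a9* (5.22 to 6.09%) lay there above these markers and below *Abca3* (9.79 to 12%). Markers of alveolar type 1 cells followed no single pattern. In CD24lo libraries *Ager* was at 14.9 to 20.8% of the alveolar level and *Rtkn2* at 29.2 to 108%. *Hopx* was there at 173 to 315% and *Pdpn* at 530 to 786%. In EpCAM-negative libraries *Ager* was at 10.7 to 14.5% and *Hopx*, *Rtkn2* and *Pdpn* were higher still, all above *Cftr* and *Slc26a9*. The part of alveolar RNA in the *Cftr*, *Slc26a9* and *Slc26a4* values of these gates was not tested.

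**Figure D3:**
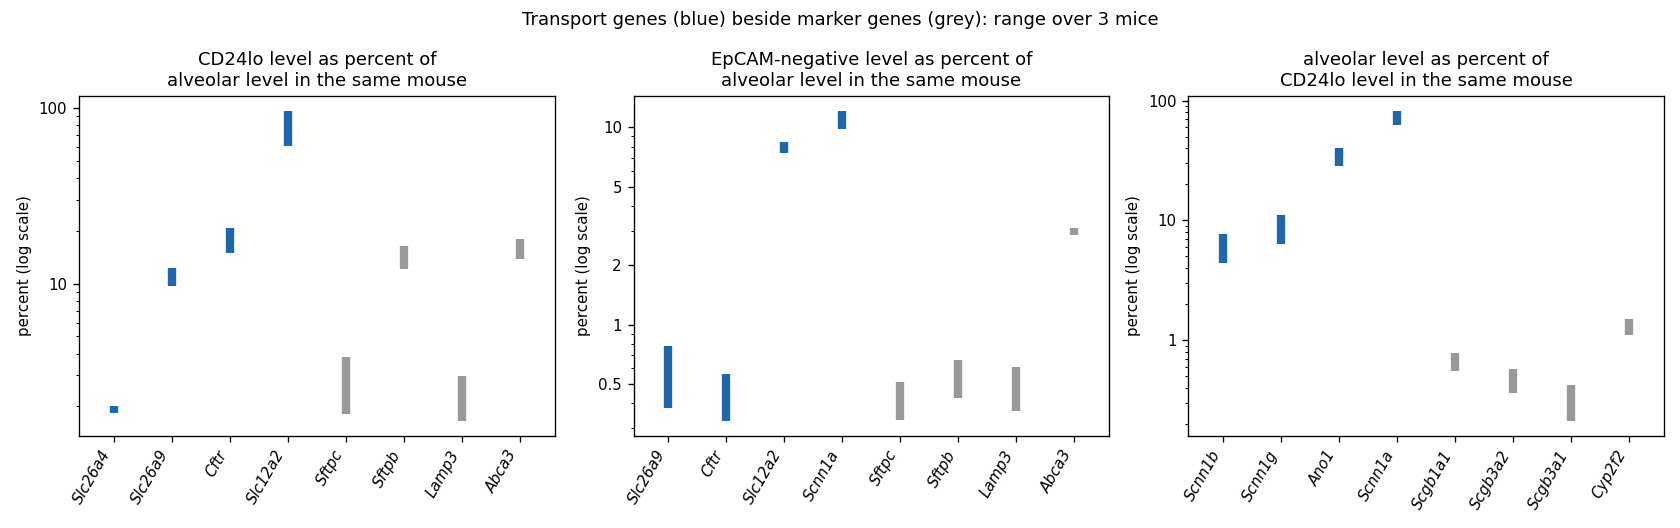
Level in a gate as a percent of the level in another gate of the same mouse (vertical axes, log scale), with each bar spanning the lowest to the highest of 3 mice. Transport genes are blue and the 4 markers of type 2 cells (left and middle panels) or of club cells (right panel) are grey. *Slc26a4* in CD24lo sits at 1.84 to 2.02% of its alveolar level, beside *Sftpc* and *Lamp3*, and *Scnn1b* and *Scnn1g* in alveolar cells sit above all 4 club markers.

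*Ano1* encodes TMEM16A, a chloride channel opened by intracellular calcium, and lies on chromosome 7 (144588549 to 144752026). It was the one anion transport gene of the 4 that was highest in trachea, at 84.2, 75.4 and 79.0 RPKM in the non-basal libraries against 35.2, 30.2 and 29.9 in those of BSCs. In lung it was at 22.6, 23.4 and 27.1 RPKM in CD24lo, 9.38, 7.64 and 9.71 in EpCAM-negative, 9.13, 7.81 and 7.67 in alveolar and 6.93, 5.34 and 5.02 in CD24hi cells. Non-basal libraries lay above all others, while EpCAM-negative and alveolar libraries overlapped. BSCs were 2.5-fold below non-basal cells (log2 -1.32, SE 0.12, edgeR adjusted p = 1.14e-07), CD24hi cells were 4.22-fold below CD24lo cells (log2 -2.08, SE 0.13, edgeR adjusted p = 1.24e-09), and CD24lo cells were 2.97-fold above alveolar cells (log2 1.57, SE 0.13, edgeR adjusted p = 1.76e-08).

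*Ano1* was also the gene whose mean over the 3 lung epithelial gates did not pass the test against EpCAM-negative cells, at a log2 difference of 0.23 (SE 0.11, edgeR adjusted p = 0.0591). With the mouse as a block the difference was 0.24 (edgeR adjusted p = 0.0425), and with the gene length trend removed it was 0.49 (edgeR adjusted p = 0.00127). Leaving out CD24hi replicate 3, CD24lo replicate 1 or 2, EpCAM-negative replicate 3 or alveolar replicate 3 also brought it past the threshold, with log2 differences of 0.25 to 0.33. EpCAM-negative libraries held *Ano1* at 32.6 to 41.6% of the CD24lo level, beside 0.243 to 0.470% for the 4 club markers. Per length, *Cftr* over *Ano1* was 1.71 to 2.37 in alveolar libraries and at most 0.145 in every other library.

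The basolateral genes include *Slc12a2*, on chromosome 18 (57878512 to 57946821), which encodes NKCC1. It was at 80.3, 79.6 and 86.4 RPKM in alveolar and 48.7, 65.8 and 82.9 in CD24lo cells, which overlapped. It was at 23.7, 24.7 and 26.4 RPKM in non-basal, 9.47, 13.9 and 15.8 in CD24hi, 9.10, 10.2 and 11 in BSC and 6.07, 5.90 and 7.28 in EpCAM-negative cells. CD24lo minus alveolar was -0.32 on the log2 scale (95% interval -0.69 to 0.05, edgeR adjusted p = 0.142), and -0.35 (edgeR adjusted p = 0.0276) with the mouse as a block. Leaving out CD24lo replicate 3 gave -0.51 (edgeR adjusted p = 0.0232), and leaving out CD24lo replicate 1 gave -0.14 (edgeR adjusted p = 0.513). CD24hi cells were 5.04-fold below CD24lo cells (log2 -2.33, SE 0.18, edgeR adjusted p = 9.91e-09) and BSCs 2.47-fold below non-basal cells (log2 -1.31, SE 0.18, edgeR adjusted p = 9.03e-06). Its log2 CPM correlated with that of *Cftr* at r = 0.952 over the 18 libraries, a description as above.

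*Atp1b1*, on chromosome 1 (164437099 to 164458355), encodes the beta 1 subunit of the sodium potassium ATPase and had the highest level of the 10 genes per length in 4 of the 6 gates. It was at 486, 507 and 517 RPKM in alveolar, 444, 478 and 481 in non-basal and 270, 424 and 402 in CD24lo cells. It was at 199, 220 and 219 RPKM in BSCs, 129, 151 and 157 in CD24hi and 7.13, 7.33 and 8.08 in EpCAM-negative cells, which lay far below all epithelial libraries. Alveolar and non-basal cells differed by 0.11 on the log2 scale (SE 0.13, edgeR adjusted p = 0.505). CD24lo cells were below alveolar cells by a log2 fold change of -0.46 (SE 0.13, edgeR adjusted p = 0.00842), a difference that did not pass in a fit of these 2 groups alone (log2 -0.41, edgeR adjusted p = 0.078). Without CD24lo replicate 1 it was -0.28 (edgeR adjusted p = 0.0349). CD24hi cells were 2.51-fold below CD24lo cells (log2 -1.33, SE 0.14, edgeR adjusted p = 2.07e-07). Exons of *Nme7* on the opposite strand overlap 18.7% of the annotated exonic bases of *Atp1b1*, and without a stated strand setting reads there cannot be told apart.

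*Kcnq1*, on chromosome 7 (143106877 to 143427050), encodes a voltage-gated potassium channel that supports anion secretion from the basolateral side. It was at 20.8, 18.1 and 19.7 RPKM in non-basal, 15.3, 11.4 and 12.8 in alveolar and 12.8, 14.6 and 12 in CD24lo cells. BSCs were at 3.55, 3.28 and 3.32 RPKM, CD24hi cells at 4.41, 2.35 and 2.60 and EpCAM-negative cells at 1.43, 1.31 and 1.01. Alveolar and CD24lo libraries overlapped, with a log2 difference of -0.01 (95% interval -0.36 to 0.35, edgeR adjusted p = 0.982), and so did BSC and CD24hi libraries (log2 of BSC minus CD24hi 0.12, edgeR adjusted p = 0.577). BSCs were 5.78-fold below non-basal cells (log2 -2.53, SE 0.17, edgeR adjusted p = 2.55e-09) and CD24hi cells 4.2-fold below CD24lo cells (log2 -2.07, SE 0.18, edgeR adjusted p = 4.10e-08). Exons of *Kcnq1ot1* on the opposite strand overlap 2.96% of its exonic bases.

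Within the trachea, all 10 genes were lower in BSCs than in non-basal cells at an adjusted p under 0.05, and their median log2 difference was -1.57. The groups did not overlap for any of them, but the share of all genes without overlap was not computed. Of all 17989 genes tested, 48.2% passed in either direction, 21.9% higher and 26.2% lower, and the median was -0.02. The fold decreases ran from 1.62 for *Scnn1a* to 6.10 for *Slc26a9*, apart from *Slc26a4* with its 1 read in BSCs. Across the same gates the 4 basal markers summed to 1720 to 1800 RPKM in BSCs and 122 to 157 in non-basal cells, and the 4 club markers to 9840 to 12000 and 103000 to 109000. The club markers differed from each other as a share of the non-basal level of the same mouse. *Scgb3a1* was at 1.30 to 2.35%, *Scgb1a1* at 1.60 to 2.70%, *Scgb3a2* at 14.9 to 17.1% and *Cyp2f2* at 48.5 to 51.4%.

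Between the airway gates of the lung, 9 genes were lower and 1, *Scnn1a*, was higher in CD24hi than in CD24lo cells, and their median log2 difference was -2.07. The groups again did not overlap, with no share over all genes computed. Over all genes 55.0% passed, 27.8% higher and 27.2% lower, with a median of -0.06. The fold decreases ran from 1.86 for *Slc26a9* to 7.69 for *Scnn1g*. *Scnn1a* in CD24hi cells was at 145 to 189% of the CD24lo level in the 3 mice, whereas *Slc26a9* was at 48.5 to 62.8% and *Atp1b1* at 35.6 to 47.7%. The 5 ciliated markers summed to 1490 to 1690 RPKM in CD24hi and 257 to 389 in CD24lo cells. *Tubb4b*, 1 of these markers, averaged 214 RPKM in CD24lo and 165 in alveolar cells. By means, CD24hi cells held it at 361% of the CD24lo level, beside 886% for *Foxj1*, 1030% for *Dnah5*, 1060% for *Dnah9* and 706% for *Ccdc39*.

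CD24lo against alveolar cells split the genes, with 4 higher (*Scnn1a*, *Scnn1b*, *Scnn1g* and *Ano1*), 4 lower (*Cftr*, *Slc26a9*, *Slc26a4* and *Atp1b1*) and 2 that did not pass (*Slc12a2* and *Kcnq1*), with 48.4% of all genes passing. In CD24hi against alveolar cells the 3 ENaC subunits were higher and the other 7 genes lower, with 61.9% of all genes passing. Its *Ano1* difference of -0.51 (edgeR adjusted p = 0.00261) was -0.19 (edgeR adjusted p = 0.203) with library totals alone. The mean of the 3 lung epithelial gates was higher than EpCAM-negative cells for 9 genes, all but *Ano1*, and the median log2 difference was 3.47. Over all genes it was 0.01, and 69.0% passed, 33.4% higher and 35.5% lower. The 9 genes did not all pass in each gate. *Scnn1g* in alveolar cells (log2 -0.06, edgeR adjusted p = 0.821) and *Slc26a4* in CD24hi cells (log2 1.81, edgeR adjusted p = 0.0927) did not pass against EpCAM-negative cells. These comparisons share libraries and are not independent.

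**Figure D4:**
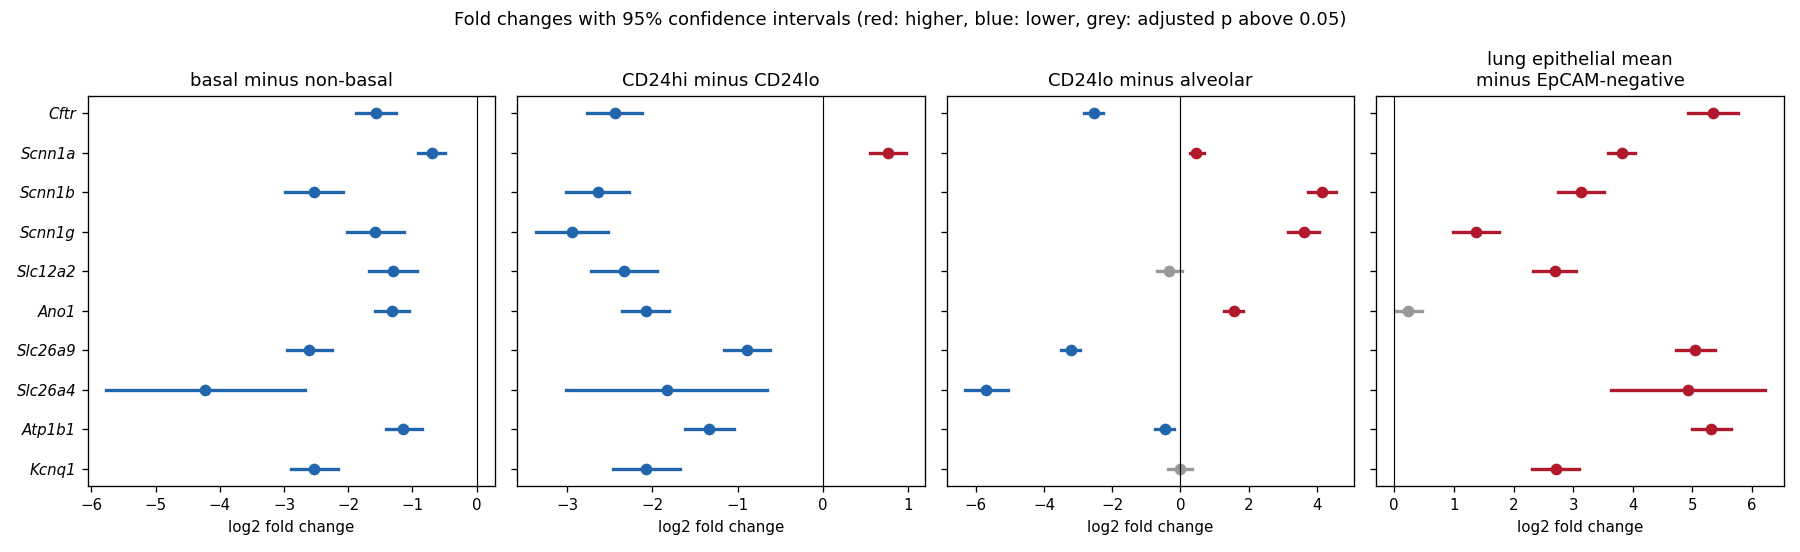
Log2 fold changes (horizontal axes) of the 10 genes in 4 comparisons from the edgeR fit of all 18 libraries, with bars for 95% confidence intervals. Red is higher and blue lower in the population named before "minus", and grey did not pass an adjusted p of 0.05. All points are below 0 for BSCs (labelled basal) minus non-basal cells, and *Scnn1a* is the only point above 0 for CD24hi minus CD24lo. The fitted *Slc26a4* value for BSCs, with 1 read, depends on the prior count.

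Across organs, BSCs against alveolar cells had 1 gene higher (*Ano1*, 3.87-fold, log2 1.95, SE 0.13, edgeR adjusted p = 4.11e-10), 8 lower and 1 that did not pass (*Scnn1a*), with 66.1% of all genes passing. Tracheal non-basal against lung CD24lo cells, 2 gates that both held secretory markers, had 4 higher and 6 lower, with 53.1% of all genes passing. *Ano1* was 3.26-fold higher in non-basal cells (log2 1.71, SE 0.13, edgeR adjusted p = 6.97e-09), whereas *Scnn1b* was 45.1-fold lower (log2 -5.50, SE 0.20, edgeR adjusted p = 1.53e-12) and *Scnn1g* 15.3-fold lower (log2 -3.94, SE 0.21, edgeR adjusted p = 1.13e-10). The log2 differences of *Scnn1a* (0.26, SE 0.10), *Atp1b1* (0.36, SE 0.13) and *Slc26a4* (-1.31, SE 0.44) passed the test (edgeR adjusted p = 0.0357, 0.0331 and 0.0203), but not in a fit of these 2 groups alone (edgeR adjusted p = 0.0804, 0.127 and 0.0761). With tracheal libraries thinned to 11971725 counts they did not pass either (log2 0.20, 0.316 and -0.844, edgeR adjusted p = 0.119, 0.0592 and 0.142). *Scnn1a* and *Atp1b1* also fell short with the gene length trend removed (edgeR adjusted p = 0.0655 and 0.062). Non-basal against CD24hi cells had 5 higher, 4 lower and 1 that did not pass, with 68.4% of all genes passing.

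*Scnn1a* and *Slc26a4* calls between non-basal and CD24lo cells also depended on single libraries. *Scnn1a* did not pass without any 1 of the non-basal libraries or without CD24lo replicate 1 or 3 (edgeR adjusted p = 0.0701 to 0.158). *Slc26a4* did not pass without non-basal replicate 3 (log2 -0.88, edgeR adjusted p = 0.0772) or CD24lo replicate 1 (log2 -1.21, edgeR adjusted p = 0.0781). *Atp1b1* did not pass without non-basal replicate 2 or 3 (log2 0.34, edgeR adjusted p = 0.0793 and 0.084) or CD24lo replicate 1, which took the log2 difference from 0.36 to 0.18 (edgeR adjusted p = 0.173).

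The other ion transport genes were taken from 9 lists with 94 genes, of which 90 were tested. In BSCs against non-basal cells 23 were higher and 39 lower (68.9%, beside 48.2% of all genes), and their median was -0.26 on the log2 scale, or -0.28 with genes unread in a group set at their bound. Epithelial potassium channels had 8 of 9 lower and 1 higher, with a median of -1.13, beside 26.2% of all genes lower. The lists differed in direction. The sodium potassium ATPase list had 3 higher and 1 lower, and other cation chloride cotransporters had 2 higher and 1 lower. WNK and SPAK kinases and scaffolds had 4 of each, and the remaining lists had more lower than higher. The largest decreases were in *Slc4a5*, a sodium bicarbonate cotransporter (0.520 against 15.1 RPKM, 29.0-fold), *Clca1*, a secreted modulator of calcium-activated chloride conductance (5.64 against 149 RPKM, 26.3-fold), *Car2*, a cytosolic carbonic anhydrase (0.0787 against 1.05 RPKM), *Slc9a4*, a sodium proton exchanger, and *Bpifa1*, a secreted ENaC inhibitor (13600 against 137000 RPKM). Higher in BSCs were *Slc12a4*, a potassium chloride cotransporter (25.4 against 4.23 RPKM, 5.99-fold), *Clca2* (7.68 against 1.55), the purinergic receptor gene *P2ry1* (13.6 against 3.26) and *Car12* (1.81 against 0.790).

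In CD24hi against CD24lo cells 19 of the 90 were higher and 43 lower (68.9%, beside 55.0% of all genes), with a median of -0.44 (-0.45 with the bounds) against -0.06. Receptors and cyclic AMP genes had 9 of 10 lower and 1 higher, and the higher gene was *Prkar2b*, a regulatory subunit of protein kinase A (30.1 against 8.18 RPKM). Over all genes 27.2% were lower. WNK and SPAK kinases and scaffolds were the only list with more higher (4) than lower (2). *Kcne3*, whose product partners KCNQ1 in secretory epithelia, was 13.3-fold lower in CD24hi cells (0.845 against 11.2 RPKM, log2 -3.73, SE 0.18, edgeR adjusted p = 1.44e-10). *Atp6v1b1*, a proton pump subunit, was 14.2-fold lower (3.07 against 43.5 RPKM), and *Clca1*, *Bpifa1* and *Vipr1* were 13.5-, 10.3- and 9.56-fold lower. *Kcne2*, another KCNQ1 partner, was higher (35.3 against 8.84 RPKM, 3.99-fold), as were *Kcnk5* (5.75-fold), *Slc4a11* (6.38-fold) and *Wnk2* (4.77-fold).

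In CD24lo against alveolar cells 33 were higher and 27 lower (66.7%, beside 48.4% of all genes), with a median of 0.10 (0.11 with the bounds) against 0.03. The KCNQ1 partners divided in opposite directions, since *Kcne3* was at 11.2 RPKM in CD24lo cells and had 1 read in all in alveolar cells (ratio 617, 95% exact counting interval 110 to 24400), whereas *Kcne2* was at 8.84 and 97.6 RPKM (11-fold lower in CD24lo, log2 -3.46, SE 0.23, edgeR adjusted p = 1.07e-09). *Kcnq1* itself was at 13.1 and 13.2 RPKM in these gates. *Car2* (7.32 against 80.8 RPKM), *Fxyd2*, the protease gene *Tmprss4* (18.1 against 75.2) and the purinergic receptor gene *P2ry2* (2.26 against 8.38) were also lower in CD24lo cells, and *Atp6v1b1* (43.5 against 0.102), *Clca1* (53.7 against 0.220), *Bpifa1* (8920 against 41.6) and *Vipr1* (4.97 against 0.0442) were higher.

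**Figure D5:**
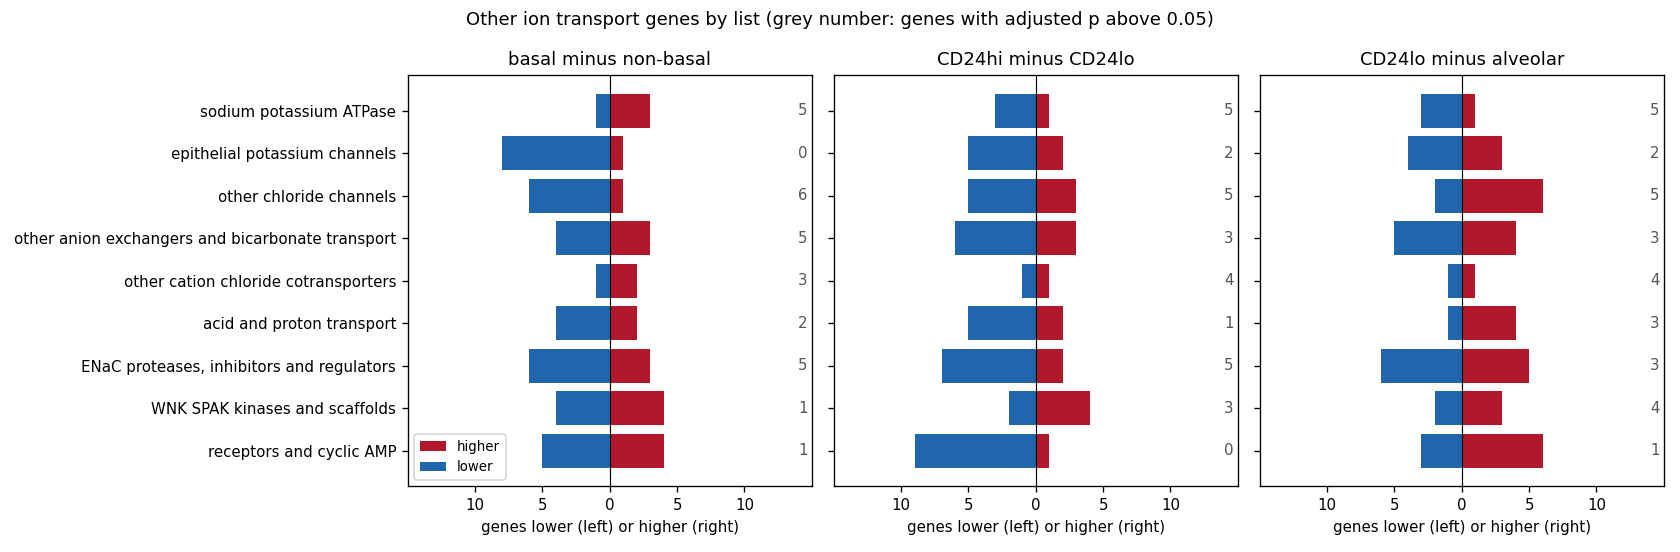
Number of other ion transport genes in each of 9 lists that were higher (red, to the right) or lower (blue, to the left) in the population named first, for 3 comparisons, with the number that did not pass in grey at the right edge. Epithelial potassium channels have 8 of 9 genes lower in BSCs (labelled basal) than in non-basal cells, and receptors and cyclic AMP genes have 9 of 10 lower in CD24hi than in CD24lo.

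In the remaining comparisons 70.0 to 86.7% of the 90 passed, beside 53.1 to 69.0% of all genes. CD24hi against alveolar cells had 24 higher and 40 lower, with *Kcnj15*, a potassium channel (5.63 against 80.2 RPKM, 14.2-fold lower), *P2ry2* (13.9-fold lower) and *Adora2b* (11.3-fold lower), and *Prkar2b* (67.2-fold higher). The lung epithelial mean against EpCAM-negative cells had 39 higher and 33 lower, and the sodium potassium ATPase list had 3 higher and 6 lower, with *Fxyd1* and *Atp1b2* 27.0- and 17.0-fold lower in the epithelial mean, opposite to *Atp1b1*. *Atp1b2* was at 19.4 RPKM and *Atp1b1* at 7.51 RPKM in EpCAM-negative cells, so per length the beta 2 transcript exceeded the beta 1 transcript there. The beta 3 transcript, *Atp1b3*, was above both in that gate, at 104 RPKM. BSCs against alveolar cells had 38 higher and 32 lower, with *Fxyd3* (245 against 1.14 RPKM) higher and *Car2* (0.0787 against 80.8), *Kcnj15* (0.407 against 80.2) and *Kcne2* (0.862 against 97.6) lower. Non-basal against CD24lo cells had 38 higher and 25 lower, with *Kcne3* (63.9 against 11.2 RPKM) and *Sgk1*, a kinase that raises ENaC activity (150 against 33.2), higher. Non-basal against CD24hi cells had 44 higher and 34 lower, with *Kcne3* 75.6-fold and *Atp6v1b1* 43.0-fold higher and *Kcne2* 23.9-fold lower.

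Genes with the most similar pattern were sought among 14880 tested genes with a mean of at least 1 RPKM in some gate, by Pearson's r of log2 CPM over the 18 libraries. The nearest gene to *Cftr* was *Sftpd*, a surfactant protein gene (r = 0.973), that to *Slc26a9* was *Pla2g1b* (r = 0.989) and that to *Slc26a4* was *Spg21* (r = 0.984). *Scnn1a* was nearest to *Cracdl* (r = 0.995) and to *Cldn7*, a tight junction gene (r = 0.993). *Scnn1b* was nearest to *Retnlg* (r = 0.962), with *Scnn1g* in the same short list, and *Scnn1g* to *Aox1* (r = 0.971). *Slc12a2* was nearest to *Gstt3* (r = 0.974) and then to *Cftr*, *Ano1* to *Stxbp5l* (r = 0.981), *Atp1b1* to *Elmo3* (r = 0.990) and *Kcnq1* to *Ppp1r1b* (r = 0.980). These values describe libraries that share gates, mice and depth.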

How the data were processed

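RNA-seq libraries of 18 mouse samples were analysed, 3 for each of 6 sorted populations. The authors sequenced single-end reads, aligned them with Rsubread to mm10, assigned them to Entrez genes with featureCounts and deposited unnormalized counts together with the length of each of 27179 genes. The strand setting is not given in the sources used here. Groups and mouse numbers followed the sample labels. The series' design text does not mention trachea.

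Analysis used R 4.3.3. The 17989 genes that exceeded 0.2 CPM in 3 or more libraries entered a single model of all samples in edgeR 4.0.16 (TMM factors, glmQLFit, glmQLFTest). Adjusted p-values are Benjamini-Hochberg over these genes, and 0.05 was the threshold. RPKM used the deposited length and TMM-scaled totals. Standard errors were taken from the F statistic, and counting intervals were exact at 95%. They cover counting error only. Symbols, coordinates and sequences came from RefSeq GRCm38.p6 tables (25275 identifiers matched) and exon overlaps from GENCODE. The 10 genes and the lists were chosen with earlier results of these data known. Named are the 10 genes, per comparison up to 5 higher and 5 lower genes of the lists with the largest fold change that passed with a mean of at least 1 RPKM, the 3 nearest genes of each of the 10, and markers. Some single genes that this rule names are not reported here.

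Alternatives were limma 3.58.1 voom, DESeq2 1.42.0, RLE factors, library totals alone, a CPM above 1, no filter, only the groups compared, a replicate block, each library left out, a gene length correction and thinning of the tracheal libraries to 11971725 counts. Libraries of the same mouse correlated in their deviations at -0.06 to 0.34 over 21 pairs, and libraries of different mice at -0.05 to 0.06 over 24. The pairing comes from the mouse numbers in the labels. The chi-square per degree of freedom between replicates was at least 3.50, so none was a duplicate. Nothing in the labels says whether libraries of different mice were prepared together. The workflow was tested on simulated counts.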

Additional observations from a re-analysis of the deposited data

How the results depend on the processing

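Of 1289 values of single genes under the alternatives, 1245 kept their direction and their side of the threshold, 21 fell short of it, 10 newly passed and 13 changed sign. The count of the 10 genes that passed stayed within 1.5 times the main count in every comparison. That limit is a weak check, since at most 2 of the 10 genes had not passed in any main comparison. In non-basal minus CD24lo cells *Scnn1a*, *Slc26a4* and *Atp1b1* fell short with only the groups compared, and the count still met it. Both results that changed sign were near 0 and had not passed. For *Kcnq1* in CD24lo minus alveolar cells the log2 difference of -0.00699 was 0.0144 with RLE factors and with DESeq2, 0.0195 with library totals alone, 0.00245 with a CPM above 1, 0.000188 with limma voom, 0.047 with only the groups compared and 0.00712 with the replicate block, and ran from -0.104 to 0.116 when each library was left out. For *Scnn1a* in basal minus alveolar cells the value of 0.0332 was -0.0129 with the length trend removed and -0.0323 with thinned tracheal libraries, and ran from -0.000398 to 0.0971 when each library was left out. The cause was not tested.

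The replicate block brought *Slc12a2* in CD24lo minus alveolar cells (-0.354, edgeR adjusted p = 0.0276) and *Ano1* in the lung epithelial mean minus EpCAM-negative cells (0.237, edgeR adjusted p = 0.0425) past the threshold and changed no other call of the 10 genes. Across organs the block joined different mice that share a number only. With library totals alone the all-gene median log2 value went from -0.02 to 0.31 in basal minus non-basal cells and the share of calls that were higher from 45.5 to 72.2%. The same share went from 50.5 to 68.4% in CD24hi minus CD24lo, from 49.2 to 65.4% in CD24hi minus alveolar, from 46.1 to 64.5% in basal minus alveolar and from 46.0 to 34.0% in non-basal minus CD24hi cells. *Slc26a4* could not be tested with basal and non-basal libraries alone, since it did not pass the filter there. Depth limits *Slc26a4* outside the alveolar gate and *Cftr* in EpCAM-negative cells most.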
